A study of Mus musculus with 2 samples.

Results

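To describe how neutrophils handle lipid after contact with tumor exosomes, 10 genes of apolipoproteins, lipid uptake and efflux, and lipid droplets were read from the expression tables of PBS-treated and exosome-treated neutrophils. The genes were Apoc2, Apoe, Lpl, Abca1, Abcg1, Cd36, Plin2, Fabp5, Trem2 and Pparg. They were chosen by name with earlier results of these data known, and each had a row among the 35522 features of both tables. Neutrophils were sorted from the bone marrow of Balb/C mice, 5 to 8 weeks of age, as cells with CD11b, high Ly-6G and little or no Ly-6C, and both cultures contained the myeloid growth factor GM-CSF at 10 ng/ml. The control culture received PBS for 3 days, and the treated culture, labelled ELV-treated, received 20 μg/ml tumor exosomes for 3 days. Their source was SDCSCs, the stem-like fraction of the mouse colon carcinoma line CT26 that is expanded as spheroids without serum, and they were pelleted by ultracentrifugation. The study analysed only sorted cells above a minimum purity, which left room for a minority of other cells. The labels do not say whether animals were pooled. Each treatment holds 1 library, so no value below can be set against a spread between replicates, and no test between treatments was possible. Values are RPKM, in which reads are scaled by exon length and by the mapped reads of the library. This unit allows levels of different genes to be set side by side.

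Myeloid cells take up lipid from lipoproteins, dying cells and membranes, and store or export it. Lipoprotein lipase frees fatty acids from triglyceride-rich lipoproteins with the help of apolipoprotein C-II, and CD36 brings fatty acids and modified lipoproteins into the cell. Fatty acid binding proteins carry fatty acids in the cytosol, perilipins coat the lipid droplets that store them, and the transporters ABCA1 and ABCG1 pass cholesterol to acceptors such as apolipoprotein E. In macrophages, Abca1, Abcg1, Apoe and Apoc2 are known targets of liver X receptors (LXRs), which sense oxidized sterols, and Cd36, Plin2, Lpl and Fabp4 are known targets of peroxisome proliferator-activated receptors (PPARs). Both receptor types bind DNA with a retinoid X receptor at repeats of a hexamer, spaced by 4 bases for LXRs (DR4) and by 1 base for PPARs (DR1).

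Promoter sequence bears on genes that differ together, so the bases before the start sites of Abca1, Apoc2 and Apoe, the genes with the 3 largest ratios, are shown. They are read 5′ to 3′ on the strand of the gene, from RefSeq on GRCm38.p6, and end at the base before the start site. Capitals mark the closest match to a repeat, either DR4 (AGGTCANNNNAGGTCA, at most 3 mismatches) or DR1 (AGGTCANAGGTCA, at most 2 mismatches), sought on both strands. The Abca1 stretch lies at chr4:53159896-53160145 and the Apoe stretch at chr7:19699189-19699438, each 250 bases long on the minus strand. That of Apoc2 lies at chr7:19677942-19678082 on the minus strand and was cut to 141 bases, where an exon of the neighbouring gene Apoc4 begins.
Abca1: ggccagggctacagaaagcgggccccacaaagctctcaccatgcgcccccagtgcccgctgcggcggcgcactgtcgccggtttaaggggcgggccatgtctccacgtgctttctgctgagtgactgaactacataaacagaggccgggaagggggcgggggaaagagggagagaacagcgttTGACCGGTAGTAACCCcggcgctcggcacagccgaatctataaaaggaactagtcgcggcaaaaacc
Apoc2: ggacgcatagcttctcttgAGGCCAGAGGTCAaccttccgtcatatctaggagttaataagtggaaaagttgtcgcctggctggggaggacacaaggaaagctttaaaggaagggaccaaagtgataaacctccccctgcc
Apoe: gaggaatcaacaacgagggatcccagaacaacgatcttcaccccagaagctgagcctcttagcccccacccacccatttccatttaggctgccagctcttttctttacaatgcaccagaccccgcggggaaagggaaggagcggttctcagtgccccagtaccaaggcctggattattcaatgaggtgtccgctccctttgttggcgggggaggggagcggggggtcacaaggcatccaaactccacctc

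The Abca1 match lies 67 to 52 bases before the start site and reads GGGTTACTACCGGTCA on the opposite strand, with 3 mismatches to DR4. Among all 32851 promoter windows of 250 bases, 18.5% held a DR4 match this close, so such a match is common. The Apoc2 match, AGGCCAGAGGTCA, lies 122 to 110 bases before the start site and has 1 mismatch to DR1, which 0.484% of all windows reached. The Apoe stretch held neither. RefSeq windows were found for 7 of the 10 genes (11 windows, since Apoe and Pparg have several start sites), and not for Lpl, Abcg1 and Fabp5. Besides Apoc2, a DR1 match with 2 mismatches was found for Cd36 (AAGTCAGAGGCCA, 63 to 51 bases before its start site) and Plin2 (AGGTCAGGGGTCC, 225 to 213 bases before), against 3.24% of all windows with at most 2 mismatches. An annotated Plin2 exon reaches 1 base into the Plin2 window at the start site, and the match lies outside it. The 2 repeats share their hexamer, and DR4 and DR1 matches did not occur in the same window of these genes. Trem2 and Pparg windows held no match to either. These are letter matches, and no binding was measured.

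The 10 genes spanned a wide range of levels, and their order changed with treatment. In PBS-treated neutrophils Plin2 stood highest at 121.46 RPKM, followed by Apoe at 28.64, Fabp5 at 17.16, Lpl at 6.57, Abcg1 at 1.98, Apoc2 at 1.73, Trem2 at 0.91, Cd36 at 0.9, Abca1 at 0.67 and Pparg at 0.03. Plin2 alone made up 67.5% of their summed RPKM of 180.05. In exosome-treated neutrophils the order was Plin2 at 196.21, Apoe at 169.37, Apoc2 at 63.54, Fabp5 at 20.54, Abca1 at 16.11, Abcg1 at 9.81, Trem2 at 2.79, Lpl at 2.34, Cd36 at 1.18 and Pparg at 0.05, and the sum was 482. Apoc2 thus passed from place 6 to place 3, Abca1 from place 9 to place 5, and Lpl from place 4 to place 8. Variation between cultures could not be measured with 1 library each, and the order of neighbours could be set only against counting error. In PBS the 95% counting intervals of Abcg1 and Apoc2 overlapped, and that of Trem2 overlapped those of Cd36 and Abca1. After exosomes those of Trem2 and Lpl overlapped.

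**Figure D1:**
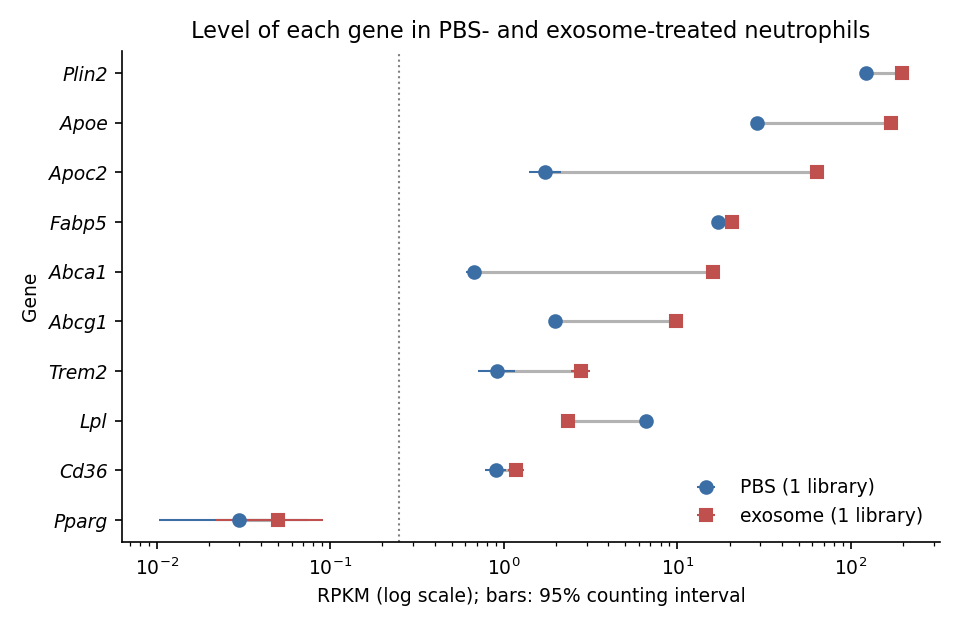
RPKM of each of the 10 genes on a log axis, with circles for the PBS library, squares for the exosome library, bars for the 95% counting interval and a dotted line at the RPKM limit of 0.25. Apoc2 (1.73 to 63.54) and Abca1 (0.67 to 16.11) have the longest connecting lines, Lpl is the gene whose square lies left of its circle, and Pparg lies below the limit in both libraries.

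A ratio was called only where both libraries reached 0.25 RPKM, with a limit of 2-fold in either direction. Of the 10 genes, 9 passed this filter and Pparg did not. After exosomes 5 of 9 were at least 2-fold higher (Apoc2, Abca1, Apoe, Abcg1 and Trem2), beside 31.5% of all 9698 genes that passed. Lpl, 1 of 9, was at least 2-fold lower, beside 5.62% of all genes, and Plin2, Cd36 and Fabp5 stayed within 2-fold. At least 4-fold higher were 4 of 9, beside 8.52% of all genes, and 0 of 9 were at least 4-fold lower, beside 1.14% of all genes. Since the genes were chosen with earlier results of these data known, these counts only describe them. The median ratio of the 9 genes was 3.07, a log2 ratio of 1.62, whereas the median of all genes that passed was 1.44, a log2 ratio of 0.53. The deposited values were thus not centred on each other, and the offset depended on the level of a gene. Each ratio is therefore also given beside the median of the 500 genes nearest in mean level. All 5 higher genes and Plin2 lay above that median, and Fabp5, Cd36 and Lpl lay below it.

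**Figure D2:**
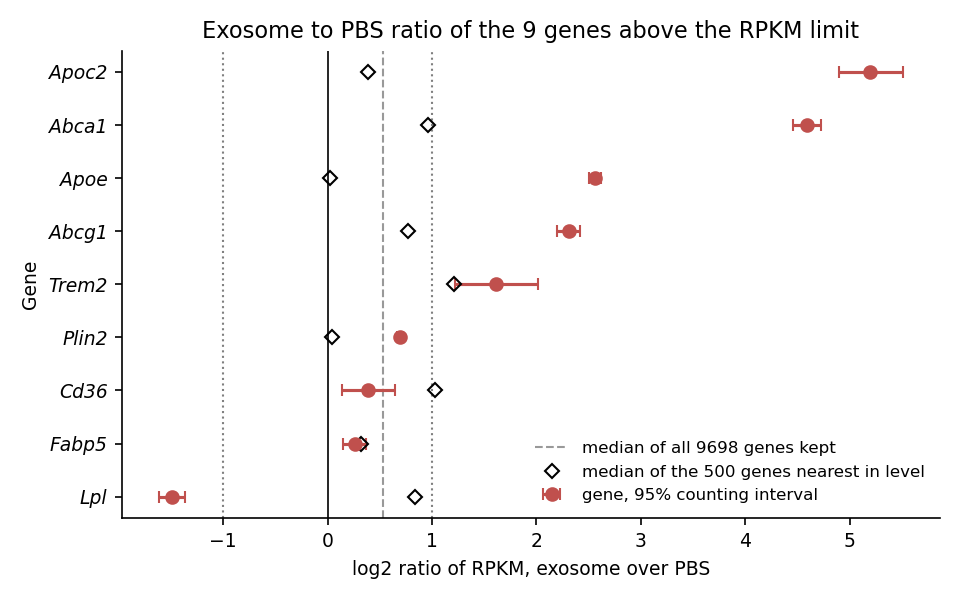
Log2 ratio of RPKM, exosome over PBS, of the 9 genes above the RPKM limit, with 95% counting intervals (points and bars), the median of the 500 genes nearest in level (open diamonds), the median of all genes kept (dashed line) and the 2-fold limits (dotted lines). Apoc2 at 5.20 and Abca1 at 4.59 stand farthest from their diamonds, Trem2 at 1.62 and Fabp5 at 0.26 lie near theirs, and Lpl at -1.49 is the gene past the lower limit.

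Apolipoproteins came first. Apoc2 encodes apolipoprotein C-II, the cofactor that lipoprotein lipase needs, and lies at chr7:19671579-19677941 on the minus strand. Its RPKM was 1.73 in PBS and 63.54 after exosomes, about 93 and 4087 reads by estimate. The ratio was 36.7 with a 95% counting interval of 29.8 to 45.5, and ranked 9 among the 9698 ratios. Genes at its level had a median log2 ratio of 0.39, against 5.20 for Apoc2. An annotated gene, Gm44805, joins Apoc4 and Apoc2 on the same strand and was not a row of the tables, so reads of such a joint transcript cannot be told apart from those of Apoc2 here.

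Apoe encodes apolipoprotein E, a ligand of lipoprotein receptors and an acceptor of cell cholesterol that macrophages secrete. It lies at chr7:19696109-19699188, also on the minus strand, 18167 bases from Apoc2. RPKM was 28.64 in PBS and 169.37 after exosomes, a ratio of 5.91 (counting interval 5.69 to 6.15). The log2 ratio was 2.56, while genes at its level had a median of 0.02. Between them lie Apoc1 and Apoc4, which encode further exchangeable apolipoproteins. Apoc1 stood at 0.2 RPKM in PBS and 0.68 after exosomes, and Apoc4 at 0.03 and 0. Tomm40, a mitochondrial import gene next to Apoe that was named after its values were seen, stood at 1.73 and 7.91 RPKM. The levels along this stretch of chromosome 7 therefore differed greatly, with Apoe and Apoc2 far above Apoc1 and Apoc4 after exosomes.

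Apoc2 and the lipase that it activates differed in opposite directions. Lpl encodes lipoprotein lipase and lies at chr8:68880491-68907448 on the plus strand. Its RPKM was 6.57 in PBS and 2.34 after exosomes, about 1783 and 762 reads. The PBS value was 2.81 times the exosome value, and the log2 ratio was -1.49 (counting interval -1.61 to -1.37). This ratio ranked 9436 of 9698, and genes at its level had a median log2 ratio of 0.84, which leaves a difference of -2.33 between Lpl and its neighbours on the log2 scale.

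Among the cholesterol exporters, Abca1 showed the larger difference. ABCA1 loads cholesterol and phospholipid onto lipid-poor apolipoproteins, and its gene lies at chr4:53030787-53159895 on the minus strand. Abca1 stood at 0.67 RPKM in PBS and 16.11 after exosomes, about 453 and 13078 reads, a ratio of 24.0 (counting interval 21.9 to 26.5). It ranked 15 of 9698. Abcg1, at chr17:31057675-31117988 on the plus strand, encodes the transporter that passes cholesterol to mature high-density lipoprotein. Its RPKM was 1.98 in PBS and 9.81 after exosomes, a ratio of 4.95 (counting interval 4.59 to 5.35). In PBS Abcg1 was the higher of these transporters, and after exosomes Abca1 was. Level neighbours had median log2 ratios of 0.96 for Abca1 and 0.77 for Abcg1, below the log2 ratios of 4.59 and 2.31.

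Genes for fatty acid uptake, transport and storage differed less. Cd36, the scavenger receptor and fatty acid translocase gene at chr5:17781690-17888801 on the minus strand, had 0.9 RPKM in PBS and 1.18 after exosomes. The ratio was 1.31 with a counting interval of 1.10 to 1.56, and the log2 ratio of 0.39 lay below the median of 1.03 of genes at its level. Fabp5, the epidermal-type fatty acid binding protein gene at chr3:10012548-10016607 on the plus strand, had 17.16 and 20.54 RPKM, a ratio of 1.2 (counting interval 1.11 to 1.29). Its log2 ratio of 0.26 lay near the median of 0.32 at its level. Reads of Fabp5 could be shared with a processed copy, Fabp5l2, which was listed at 0 in both libraries. Plin2, the perilipin gene at chr4:86648386-86670060 on the minus strand, had 121.46 RPKM in PBS and 196.21 after exosomes. The ratio of 1.62 (counting interval 1.58 to 1.65) stayed under the 2-fold limit, while genes at its level had a median log2 ratio of 0.04 against 0.69 for Plin2. The direction of the small differences of Cd36 and Fabp5 depended on scaling: both turned negative on the log2 scale once the libraries were centred on each other. That of Plin2 stayed positive.

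Trem2 encodes a surface receptor of macrophages and microglia that binds lipids and apolipoproteins, and lies at chr17:48346401-48354147 on the plus strand. It stood at 0.91 RPKM in PBS and 2.79 after exosomes, about 69 and 252 reads, a ratio of 3.07 (counting interval 2.32 to 4.03). Genes at its level had a median log2 ratio of 1.21, and Trem2 lay 0.41 above it, at 1.62. The 2-fold call of Trem2 was lost when the level median was removed (0.41) and when a pseudocount of 1 was added to both values (0.99). Pparg, which encodes the PPARγ receptor and lies at chr6:115360951-115490399 on the plus strand, was close to absent at 0.03 and 0.05 RPKM. These values correspond to about 5 and 9 reads, and the counting interval of the ratio, 0.45 to 5.70, shows that a difference was not detectable at this depth.

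**Figure D3:**
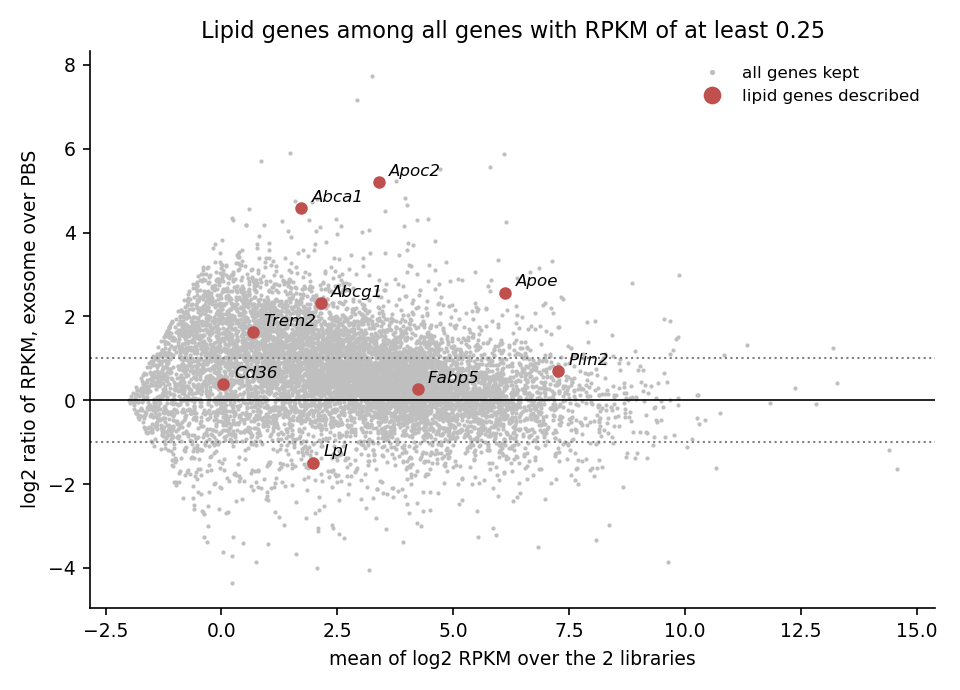
Log2 ratio of RPKM, exosome over PBS, against the mean log2 RPKM of both libraries for all genes that reach 0.25 RPKM in each (gray) and the 9 lipid genes (red, named), with dotted lines at the 2-fold limits. Apoc2 and Abca1 lie at the upper edge of the cloud, Apoe lies above genes of its own high level, and Lpl lies near the lower edge.

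By the distance of log2 RPKM over both libraries, the 3 genes nearest to Apoc2 were Rassf4 (2.22 and 82.71 RPKM, distance 0.52), the interleukin-12 subunit gene Il12a (2.44 and 55.32 RPKM, distance 0.53) and the C-type lectin gene Cd302 (2.93 and 82.38 RPKM, distance 0.85). The measure rests on 2 libraries and describes only similar levels.

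To place these genes, 9 lists of related lipid genes were read. Of 86 listed genes that passed the filter, 25 (29.1%) were at least 2-fold higher after exosomes and 8 (9.3%) were at least 2-fold lower, beside 31.5% and 5.62% of all genes. The share higher was thus near that of all genes. The counts of each list below stand beside the same 31.5% and 5.62%. Their median log2 ratio was 0.34, below the 0.53 of all genes.

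In the list of sterol efflux and LXR genes, 4 of 16 were higher and 1 was lower, beside 31.5% and 5.62% of all genes. The median log2 ratio of this list was 0.26. Mylip, which encodes a ubiquitin ligase for lipoprotein receptors and is an LXR target, had 3.43 RPKM in PBS and 15.03 after exosomes. Nceh1, which encodes a cholesteryl ester hydrolase, had 3.88 and 10.83 RPKM. Arl4c, another LXR target, had 12.2 and 4.51 RPKM and was the lower gene. Named after their values were seen, Srebf1 stood at 3.87 and 8.63 RPKM, and the LXR genes Nr1h2 and Nr1h3 at 36.6 and 38.58 and at 0.21 and 0.98 RPKM. Of the LXR targets with the largest ratios in this list, Mylip was thus higher and Arl4c lower. Abca1, Abcg1, Apoe and Apoc2, also known LXR targets, were all higher. The list was not limited to LXR targets, and 11 of its 16 genes stayed within 2-fold. A part of LXRs in these differences was not tested. Lpcat3 was among these 11, at 5.26 and 6.14 RPKM, and was named after its values were seen. Among other apolipoprotein genes 2 of 4 were higher and 1 was lower, and the 2 that reached 1 RPKM in both libraries were Apool, a mitochondrial protein gene despite its name (1.09 and 4.86 RPKM), and Apobr, a receptor gene (138.86 and 144.14 RPKM).

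All 3 genes of lipoprotein lipolysis that passed were higher, beside 31.5% of all genes. Lipa, the lysosomal acid lipase gene, had 55.26 RPKM in PBS and 187.51 after exosomes, and Lmf2 had 3.91 and 7.9. Pltp, the phospholipid transfer protein gene and an LXR target, named after its values were seen, had 0.44 and 8 RPKM, a ratio of 18.2. Lpl, in contrast, was lower. Of 17 genes of lipid uptake receptors and acyl-CoA synthetases, 8 were higher and 1 was lower, beside 31.5% and 5.62% of all genes. The median log2 ratio of these 17 genes was 0.92. Marco, a macrophage scavenger receptor gene, had 1.01 and 9.21 RPKM, and Acsl5, a long-chain acyl-CoA synthetase gene, had 15.27 and 127.22. Slc27a4, a fatty acid transport protein gene, had 105.39 RPKM in PBS and 34.75 after exosomes.

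Genes of lipid droplets and triglyceride turnover went both ways, with 4 of 15 higher and 4 of 15 lower, beside 31.5% and 5.62% of all genes. The share lower was thus above that of all genes. The median log2 ratio of this list was -0.10. Hilpda, which encodes a droplet protein that inhibits triglyceride breakdown, had 1.1 RPKM in PBS and 7.72 after exosomes. Mgll, the monoglyceride lipase gene, had 10.62 and 2.54 RPKM, and G0s2, which encodes an inhibitor of the triglyceride lipase ATGL, had 169.4 and 43.42. The ATGL gene Pnpla2, named after its values were seen, had 54.53 and 20.07 RPKM. Plin3, which encodes another perilipin and was also named after its values were seen, had 28.9 and 9.86 RPKM. The lipase, its inhibitor and this perilipin were each at least 2-fold lower in the exosome library.

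In the Trem list 0 of 9 genes were higher and 1 was lower, beside 31.5% and 5.62% of all genes. Treml2, a Trem-like receptor gene, had 39.96 and 12.75 RPKM. Trem3 and Syk, the kinase gene downstream of Trem adaptors, stayed within 2-fold at 146.54 and 216.56 RPKM and at 200.46 and 315.23 RPKM. Tyrobp, the gene for the adaptor DAP12 through which TREM2 signals, was named after its values were seen and had 1935.56 and 1571.41 RPKM, far above Trem2 in both libraries. No other gene of the fatty acid binding family passed the filter (0 of 11). In the list of PPAR genes and fatty acid oxidation, 0 of 14 were lower, and Acadl (9.25 and 16.44 RPKM) and Hadhb (6.66 and 11.66), which encode enzymes of fatty acid oxidation, stayed within 2-fold. Of the fatty acid synthesis list 3 of 8 were higher and 0 were lower, beside the same shares of all genes. Elovl5, an elongase gene, had 1.43 and 7.77 RPKM. Acly (19.49 and 34.56) and Elovl1 (34 and 47.62) stayed within 2-fold.

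**Figure D4:**
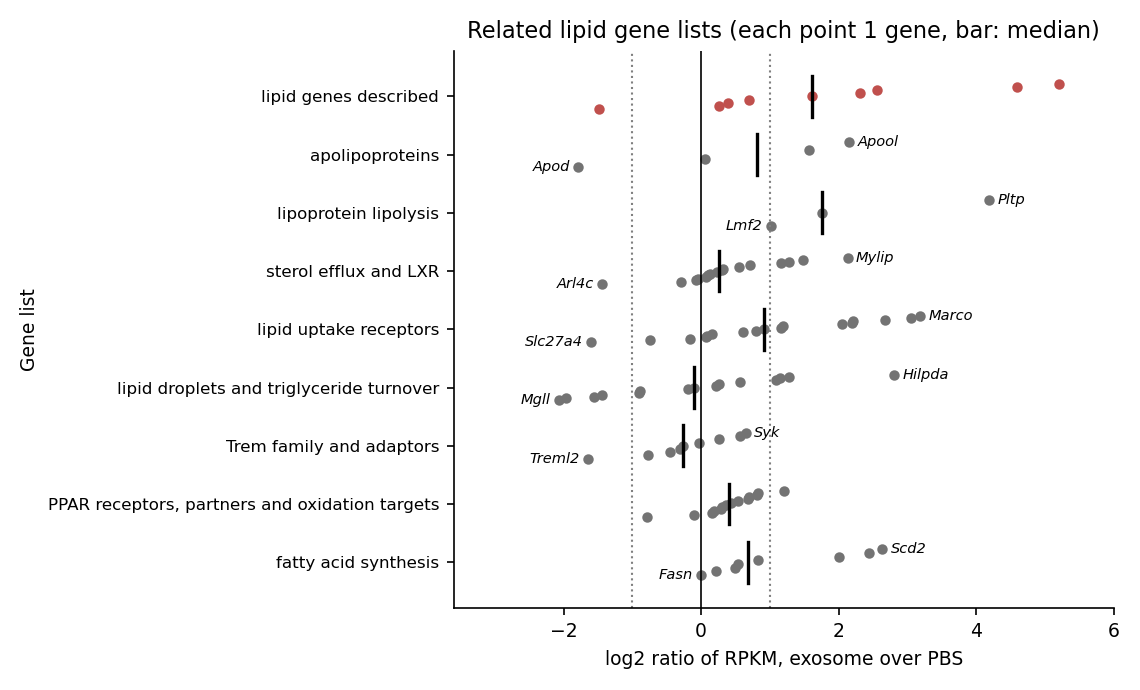
Log2 ratio of RPKM, exosome over PBS, of each gene that passed the filter in the 9 lipid genes described (red, top) and in the related lists (gray), with a bar at the median of each list, dotted lines at the 2-fold limits and the extreme genes of 7 lists named. The fatty acid binding list has no gene that passed. The droplet list is centred near 0 with Mgll and Hilpda at its ends, and the Trem list has no gene above the upper limit.

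Apoe, Trem2, Abca1 and Lpl are also abundant in macrophages, and cell type markers were therefore read beside them. Of 9 neutrophil markers 8 were at least 2-fold lower after exosomes, beside 5.62% of all genes that passed the filter. The summed RPKM of these 9 markers was 82785 in PBS and 30142 after exosomes, 2.75 times lower. S100a8 and S100a9 remained the highest of the neutrophil and macrophage markers, at 14381.81 and 13834.15 RPKM after exosomes. Ly6g at 56.19 and Cd177 at 28.24 RPKM then lay below the macrophage markers Csf1r and Emr1, whereas in PBS all 9 neutrophil markers lay above both. Of 16 macrophage and monocyte markers 7 passed the filter, and 6 of these 7 were at least 2-fold higher after exosomes, beside 31.5% of all genes. The median ratio of all genes that passed was 1.44. The other markers lay below the filter, and among them Vsig4 was lower, at 0.3 and 0.08 RPKM. The summed RPKM of the 16 markers was 84.9 in PBS and 346 after exosomes, a ratio of 4.07. Most of it came from Csf1r (58.1 and 152.64) and Emr1 (20.91 and 151.51). Ms4a7 stood at 1.02 and 16.79 RPKM and Gpnmb at 2.7 and 10.2. C1qa at 0.18 and 1.42, C1qb at 0.3 and 2.3, C1qc at 0.27 and 3.79 and Mertk at 0.04 and 0.48 RPKM were at low levels and also higher after exosomes, and Timd4 was listed at 0 in both. Over the 15 markers with a value above 0 the median ratio was 7.89. Of these 15 ratios, 11 were larger than that of Apoe, 11 larger than that of Abcg1, 12 larger than that of Trem2, and none larger than that of Apoc2 or Abca1. The part of these markers in the differences was not tested. In bulk RNA a change in the number of cells of a type and a change of RNA per cell cannot be told apart.

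Adipocyte markers were almost absent, with a summed RPKM of 0.04 in PBS and 0.02 after exosomes, and 4 of 5 were listed at 0 in both libraries. Markers of CT26-type carcinoma and mesenchymal cells summed to 1.2 and 1.06 RPKM, and 3 of 9 were listed at 0 in both.

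**Figure D5:**
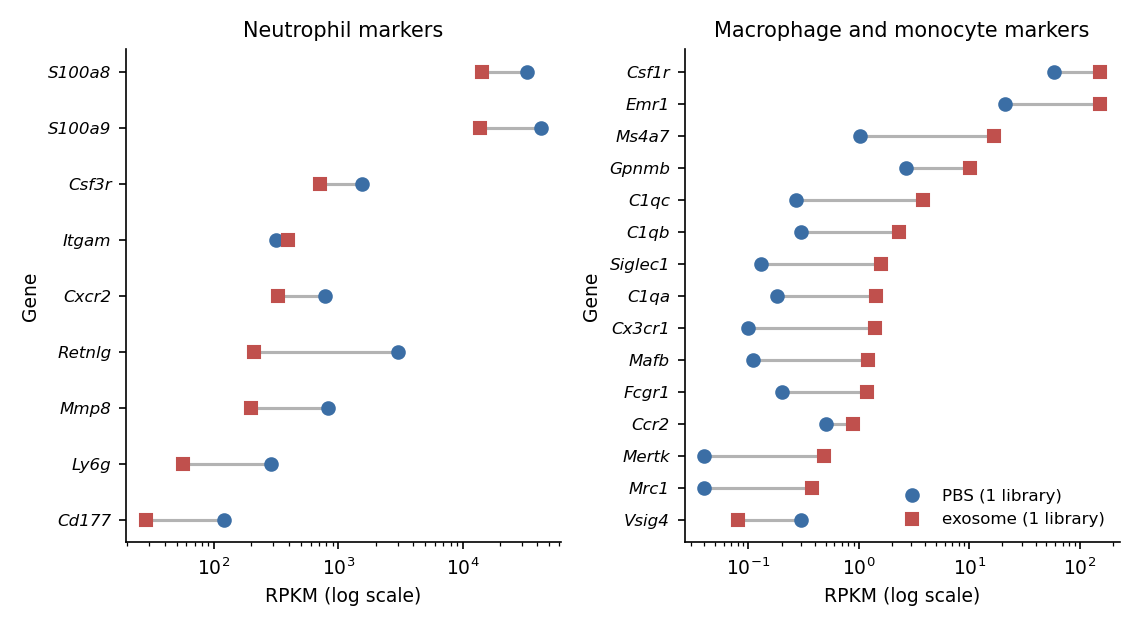
RPKM on log axes of neutrophil markers (left) and of macrophage and monocyte markers (right) in the PBS library (circles) and the exosome library (squares). All neutrophil markers but Itgam have the square left of the circle, all macrophage and monocyte markers but Vsig4 have it to the right, and Timd4, listed at 0 in both, is not drawn.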

How the data were processed

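RNA of 1 PBS-treated and 1 exosome-treated neutrophil culture was sequenced as mRNA libraries. The authors trimmed reads below a Phred score of 20 and used CLC Genomics Workbench 8.0, and they deposited RPKM values rounded to 0.01, except below 0.01. The labels name mm10. The gene model, the use of strand and how reads with several matches were assigned are not given in the sources used here. Depth was estimated from features below 0.01 RPKM, many of which stand for 1 read. Exon lengths came from RefSeq-linked transcripts in GENCODE M21, or the longest transcript where a symbol has none. By these lengths 395 of 918 features gave 66.0 M (mega) mapped reads for PBS and 433 of 1064 gave 79.1 M for exosomes, within 2%. Estimated reads served only for 95% counting intervals, exact Clopper-Pearson for ratios and exact Poisson for levels, which leave out all variation but counting. Ratios are exosome over PBS without a pseudocount, with the RPKM and fold limits that the study set. All 10 genes are named, and of each list the 3 genes with the largest absolute log2 ratio that reach 1 RPKM in both libraries. The genes and lists were chosen with earlier results of these data known. Alternatives were median centring, subtracting a trimmed mean of the log ratios (leaving out 30% of ratios and 5% of means at each end), TPM, subtracting the median of the 500 genes nearest in level, a filter at 1 RPKM, no filter, pseudocounts of 1 or, with a filter on either library at 0.25 RPKM, of 0.25, and a 4-fold limit. Scripts were checked on simulated reads (Python 3.11.15, scipy 1.17.1). A gene of the PPAR list is not reported here.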

Additional observations from a re-analysis of the deposited data

How the results depend on the processing

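Apoc2, Abca1, Apoe, Abcg1 and Lpl kept their side of the 2-fold limit under every alternative with that limit that gave them a value, and so did the within-2-fold calls of Plin2, Cd36 and Fabp5. Log2 ratios ranged from 4.56 to 5.25 for Apoc2, 3.36 to 4.64 for Abca1, 2.02 to 2.61 for Apoe, 1.54 to 2.36 for Abcg1, -2.33 to -1.18 for Lpl and 0.15 to 0.74 for Plin2. Trem2 ranged from 0.41 to 1.66. Under median centring, trimmed mean removal and level-matched centring, Cd36 turned to -0.14, -0.15 and -0.64 and Fabp5 to -0.27, -0.28 and -0.063. These settings moved the median of all genes by -0.53, -0.54 and -0.53. They brought the median of the 9 genes to 1.09, 1.07 and 0.65. Of 86 related genes, those higher became 15, 15 and 13, and those lower 13, 14 and 14. Under them 16.8%, 16.4% and 12.5% of all genes were higher and 13.2%, 13.6% and 13.7% were lower. A filter at 1 RPKM in both libraries left 3 of 6 genes higher, since Abca1, Trem2 and Cd36 no longer passed. It left 13 of 68 related genes higher, beside 25.6% of all genes. Without a filter the median was 1.18 and 17 of 116 related genes were lower, beside 10.3% of all genes. A pseudocount of 1 gave a median of 0.99 and 16 of 86 related genes higher, beside 20.4% of all genes. With a limit of 4-fold, 0 of the 9 genes were lower. Of 86 related genes 13 were then higher and 1 lower, beside 8.52% and 1.14% of all genes. No paired analysis was possible because each treatment holds 1 library.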

Other observations

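Markers of lymphocytes were present in these sorted cells. Cd79a, a B cell receptor component, had 38.25 RPKM in PBS and 24.44 after exosomes. All 6 B cell markers passed the filter and stayed within 2-fold, so 0 of 6 were at least 2-fold lower, beside 5.62% of all genes. Their median log2 ratio was -0.68, beside 0.53 for all genes, and their sums were 109.96 RPKM in PBS and 67.95 after exosomes. Cd3d, a T cell receptor component, had 56.44 and 7.02 RPKM, while Cd3e, another component of the same complex, had 0.06 and 0.04. Dendritic cell markers summed to 11.6 and 5.19 RPKM, those of mast cells, basophils and eosinophils to 10.8 and 6.62, and erythroid markers to 1.74 and 0.205. Fabp4, a fatty acid binding protein gene below the filter in PBS, stood at 0.14 and 1.24 RPKM, and Lrp1, a receptor for apolipoprotein E, at 0.26 and 1.66.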
